A study of Rattus norvegicus with 20 samples.

Results

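The genes described here encode the scaffold and signalling proteins of the postsynaptic density, the protein-rich thickening beneath the membrane of excitatory synapses. They were chosen by symbol from a list of 39 genes, of which 38 were found among the 32883 genes of the deposited count table. All 38 passed the filter on low counts and were among the 15272 genes tested. The remaining listed gene, Lrrtm1, was not analysed here. In the postsynaptic density, membrane-associated guanylate kinases (MAGUKs) hold glutamate receptors and adhesion molecules in place, Dlgap proteins tie the MAGUKs to Shank and Homer scaffolds below them, and calcium-dependent kinases and phosphatases bound to this lattice set how many receptors stay at the synapse. In the rodent hippocampus most of these scaffolds accumulate during the first postnatal weeks, as spines form on pyramidal and granule neurons.

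The measurements came from polyA RNA of the hippocampus of 20 Gunn rat pups on postnatal day 6, with 5 pups in each of 4 groups. The jj pups were homozygous and jaundiced, the state in which this strain cannot conjugate bilirubin, and the Nj pups were heterozygous and not jaundiced, so both genotypes carry the mutant allele. One jj and one Nj group received phototherapy by LED from day 4, in cycles of 3 h on and 3 h off for 12 h in all, and the other jj and Nj groups received none. The groups are called light-treated jj, light-treated Nj, untreated jj and untreated Nj below. The labels give neither the sex of the pups nor a pairing of single pups across groups. Each library is taken as a separate pup, and the p-values measure the spread between these libraries. The sample titles carry a prefix of unstated meaning that is J18 in both light-treated groups, J17 in untreated jj and J13, J14 or J15 in untreated Nj. Light and prefix therefore cannot be told apart, and the comparison of light-treated jj with light-treated Nj pups is the one made within 1 prefix.

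Libraries held 16882652 to 27112749 counted reads, and the lowest correlation of log2 CPM between libraries of a group was 0.977. Levels are given as CPM, the reads of a gene scaled to a common library size after trimmed-mean scaling (TMM). Since CPM are not divided by transcript length, levels are compared between libraries and not between genes. None of the 12 hippocampal marker genes was at 0 in all 20 libraries, which leaves room for 0 reads of a marker in single libraries. Prox1, a dentate granule cell factor, had 89.4 to 135 CPM. The neuron marker Slc17a7, the vesicular glutamate transporter of excitatory neurons, had 893 to 1160 CPM. The choroid plexus gene Ttr ran from 3.57 to 9660 CPM and exceeded 1000 CPM in 7 libraries. These were light-treated jj 2, 4 and 5, light-treated Nj 2 and 5, untreated jj 3 and untreated Nj 3. Untreated jj 3, with the highest Ttr level, held the highest or lowest value of 22 of the 38 genes, and untreated Nj 3 held the lowest value of 13. The mean over libraries was 3.8 genes. The other libraries above 1000 CPM of Ttr were nearer this mean. Light-treated jj 2, 4 and 5 held the extremes of 1, 1 and 3 genes, and light-treated Nj 2 and 5 those of 4 and 5.

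**Figure D1:**
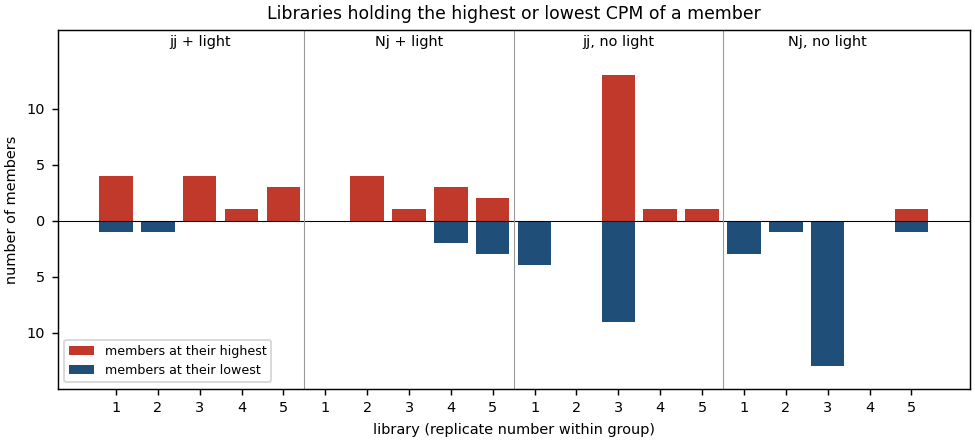
Number of the 38 genes whose highest CPM (bars above 0) or lowest CPM (bars below 0) over the 20 libraries fell in each library, by group and replicate number. Untreated jj 3 held 13 highest and 9 lowest values, and untreated Nj 3 held 13 lowest values.

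Light averaged over both genotypes was the one comparison in which postsynaptic density genes passed the threshold. Cnksr2, Camk2a, Dlg2, Cacng3 and Baiap2 rose in light-treated pups, by 1.11- to 1.19-fold, and no member fell. They encode a scaffold of Ras signalling, the alpha subunit of the calcium/calmodulin-dependent kinase CaMKII, a MAGUK, an AMPA receptor auxiliary subunit and an actin-membrane adaptor. The test was the quasi-likelihood F-test of edgeR, with p-values adjusted over all 15272 genes after Benjamini and Hochberg and a threshold of 0.05. The 5 called genes were 13.2% of the 38, against 10.1% of all genes tested, so the share called was near that of all genes. By direction, 4.35% of all genes tested were called higher and 5.74% lower. The log2 fold changes of the 38 genes ran from -0.11 for Homer3 to 0.37 for Camk2d (0.19 without light-treated Nj 4), with a median of 0.04, and were positive for 30 genes, or 78.9%. Over all genes tested the median was 0.00 and 50.4% were positive. DESeq2 called 7 members, all 5 of these with Dlg3 and Camk2n1, against 14.2% of the genes it tested.

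**Figure D2:**
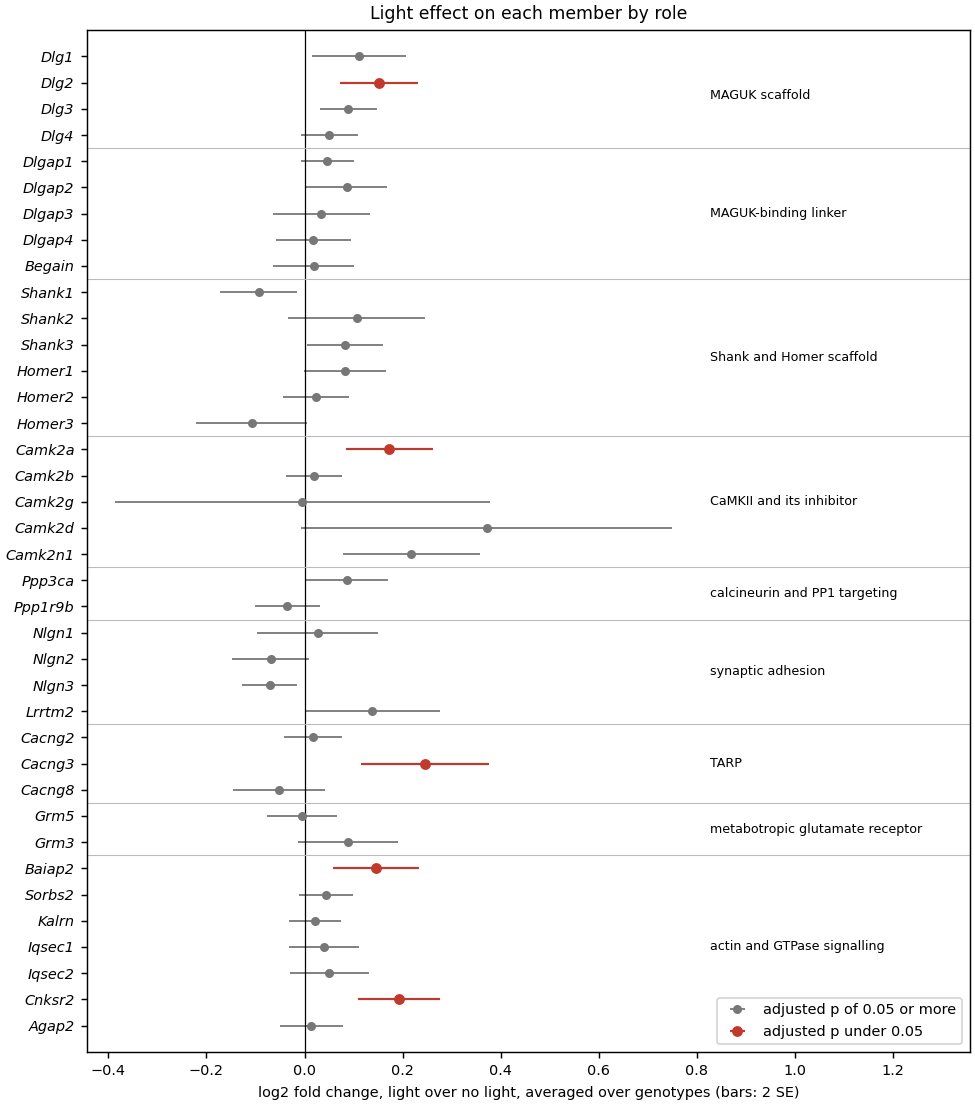
Log2 fold change of light-treated over untreated pups, averaged over genotypes, for each of the 38 genes, grouped by role from top to bottom. Points are edgeR estimates, bars are 2 standard errors, and the 5 red points have an adjusted p under 0.05. All 5 lie to the right of 0, between 0.15 and 0.25.

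The promoters of the 5 genes that rose are shown so that the sequences next to their start sites can be compared. Each is the 250 bases before the RefSeq gene start in the rat build GRCr8, on the plus strand, read 5′ to 3′. Capitals mark matches on either strand to the motifs searched, which were the cyclic-AMP response element (CRE) TGACGTCA, its core TGACG (which the full CRE contains), the E-box CACGTG, the D-box TTATGTAA, the GC box GGGCGG and the CCAAT box CCAAT.
Dlg2, chr1:154539421-154539670: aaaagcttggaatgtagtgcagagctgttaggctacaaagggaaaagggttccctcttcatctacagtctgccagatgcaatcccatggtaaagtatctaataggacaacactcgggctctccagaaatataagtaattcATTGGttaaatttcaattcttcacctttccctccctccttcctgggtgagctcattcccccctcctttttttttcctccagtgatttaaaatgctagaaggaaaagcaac
Camk2a, chr18:56648930-56649179: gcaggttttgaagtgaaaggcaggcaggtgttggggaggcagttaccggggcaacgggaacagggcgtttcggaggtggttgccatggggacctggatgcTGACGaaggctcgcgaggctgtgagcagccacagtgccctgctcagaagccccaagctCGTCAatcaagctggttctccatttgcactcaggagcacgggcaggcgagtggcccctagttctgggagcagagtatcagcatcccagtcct
Cacng3, chr1:186632312-186632561: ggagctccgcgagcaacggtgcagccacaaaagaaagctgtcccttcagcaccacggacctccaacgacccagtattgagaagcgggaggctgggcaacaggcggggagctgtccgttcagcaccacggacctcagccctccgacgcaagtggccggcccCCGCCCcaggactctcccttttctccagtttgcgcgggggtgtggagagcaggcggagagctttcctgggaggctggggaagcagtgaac
Baiap2, chr10:105721306-105721555: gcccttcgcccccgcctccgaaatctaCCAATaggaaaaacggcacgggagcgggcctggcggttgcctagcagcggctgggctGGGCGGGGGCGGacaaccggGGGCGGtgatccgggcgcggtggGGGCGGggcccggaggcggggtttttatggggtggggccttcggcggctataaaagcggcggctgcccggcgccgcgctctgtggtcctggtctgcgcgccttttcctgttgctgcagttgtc
Cnksr2, chrX:40722968-40723217: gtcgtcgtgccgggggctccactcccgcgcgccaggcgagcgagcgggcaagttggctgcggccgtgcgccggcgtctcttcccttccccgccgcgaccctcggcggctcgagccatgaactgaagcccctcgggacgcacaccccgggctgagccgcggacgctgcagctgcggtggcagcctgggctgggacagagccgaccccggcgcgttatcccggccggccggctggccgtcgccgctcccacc

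The 5 windows had little in common by these measures. Their GC content was 42.4% in Dlg2, 60.4% in Camk2a, 64.8% in Cacng3, 70.8% in Baiap2 and 76.8% in Cnksr2, against a median of 51.2% over all 33469 promoters in the table. Camk2a, which encodes the kinase subunit most abundant at adult forebrain synapses, held 2 copies of the CRE core, beginning 150 and 92 bases before the start. Baiap2 held 4 GC boxes and 1 CCAAT box, Cacng3 held 1 GC box, Dlg2 held 1 CCAAT box and Cnksr2 held none of the motifs. Of the 29 member genes with a promoter in the table, 3.45% held a full CRE, 6.9% its core, 6.9% an E-box, 0.0% a D-box, 37.9% a GC box and 27.6% a CCAAT box. The shares over all promoters were 1.59%, 18.2%, 5.59%, 0.828%, 30.5% and 34.0% in the same order. These latter shares count promoters rather than genes and are not limited to the genes tested. A match is a string of letters in the window and not a measured site.

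Among the MAGUKs, Dlg2 (ENSRNOG00000022635), which encodes PSD-93, rose. It had 214, 195, 238, 202 and 218 CPM in light-treated jj pups and 234, 237, 229, 224 and 219 CPM in light-treated Nj pups. Untreated jj pups had 199, 202, 168, 204 and 214 CPM, and untreated Nj pups had 204, 203, 210, 197 and 188 CPM. Of the 10 light-treated libraries, 8 lay above the highest untreated one, and light-treated jj 2 and 4 lay within the untreated range. The means were 221 ± 14.5 CPM with light and 199 ± 12.7 CPM without (SD, n = 10 each). The log2 fold change was 0.15 (SE 0.040), with an adjusted p from edgeR's quasi-likelihood test of 0.0171. Dlg4, which encodes PSD-95, the MAGUK most used as a marker of excitatory synapses, averaged 662 ± 21.0 CPM with light and 639 ± 25.0 CPM without, a log2 difference of 0.05 that was not called (adjusted p from edgeR = 0.285). Dlg3, the gene of SAP102, a MAGUK prominent early in development, averaged 251 ± 10.5 and 236 ± 9.67 CPM and missed the threshold with a log2 difference of 0.09 and an adjusted p from edgeR of 0.0518. Dlg1, the gene of SAP97, which binds AMPA receptors on their way to the membrane, had a log2 difference of 0.11 and was not called either. All 4 MAGUK estimates were positive, and 1 was called.

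Camk2a (ENSRNOG00000018712) rose, while the other 3 CaMKII subunits were not called. Its values were 433, 410, 373, 395 and 415 CPM in light-treated jj pups and 405, 376, 407, 407 and 407 CPM in light-treated Nj pups. Without light they were 351, 369, 378, 354 and 353 CPM in jj pups and 358, 413, 290, 339 and 368 CPM in Nj pups. All 10 light-treated libraries lay above the untreated median of 356 CPM, but only 2 lay above the highest untreated library, Nj 2. The groups averaged 403 ± 17.8 CPM with light and 357 ± 31.2 CPM without (SD, n = 10 each), a log2 fold change of 0.17 (SE 0.044, adjusted p from edgeR's quasi-likelihood test 0.0151). Camk2b, the actin-binding beta subunit, averaged 1030 ± 36.3 and 1017 ± 31.1 CPM and had a log2 difference of 0.02. The ratio of Camk2a to Camk2b CPM was 0.391 ± 0.0173 with light and 0.351 ± 0.0239 without, a description with no test, since the pair was picked after its values were seen.

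The minor CaMKII subunits were the most variable of the 38 genes. Within groups, the SD of log2 CPM was 0.44 for Camk2g (gamma) and 0.40 for Camk2d (delta), against 0.05 for Camk2b. Camk2d ran from 73.5 to 225 CPM with light and from 69.5 to 124 CPM without, and its log2 difference of 0.37 was not called (SE 0.19, adjusted p from edgeR = 0.238). Without light-treated Nj 4 the difference was 0.19, below those of Cnksr2, Cacng3 and Camk2n1 in the same fit. Camk2g had 110 counts in its lowest library and a log2 difference of 0.00 (SE 0.19). Camk2n1, the gene of a small protein that inhibits CaMKII, averaged 89.2 ± 10.9 CPM with light and 76.9 ± 9.65 CPM without. Its log2 difference of 0.22 had an adjusted p from edgeR of 0.0526, just over the threshold.

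Transmembrane AMPA receptor regulatory proteins (TARPs) carry AMPA receptors to the synapse and slow their closing. Cacng3 (ENSRNOG00000012362), the gene of TARP gamma-3, rose. In light-treated jj pups it had 35.1, 33.8, 46.0, 37.7 and 41.9 CPM, and in light-treated Nj pups 40.1, 40.8, 38.2, 52.3 and 34.0 CPM. Untreated jj pups had 36.0, 35.9, 30.8, 31.1 and 33.4 CPM, and untreated Nj pups had 34.3, 35.7, 34.7, 32.9 and 32.4 CPM. The light-treated values were more spread out, 7 of 10 lay above the highest untreated library, and light-treated Nj 4 stood highest. The means were 40.0 ± 5.74 CPM with light and 33.7 ± 1.90 CPM without (SD, n = 10 each), a log2 fold change of 0.25 (SE 0.065, adjusted p from edgeR's quasi-likelihood test 0.0194). Cacng2, the gene of stargazin, averaged 64.0 ± 2.28 CPM with light and 63.3 ± 2.59 CPM without, and Cacng8, the gene of the TARP most enriched in hippocampus, 92.2 ± 7.74 and 95.5 ± 10.2 CPM. Neither was called, with log2 differences of 0.02 and -0.05.

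**Figure D3:**
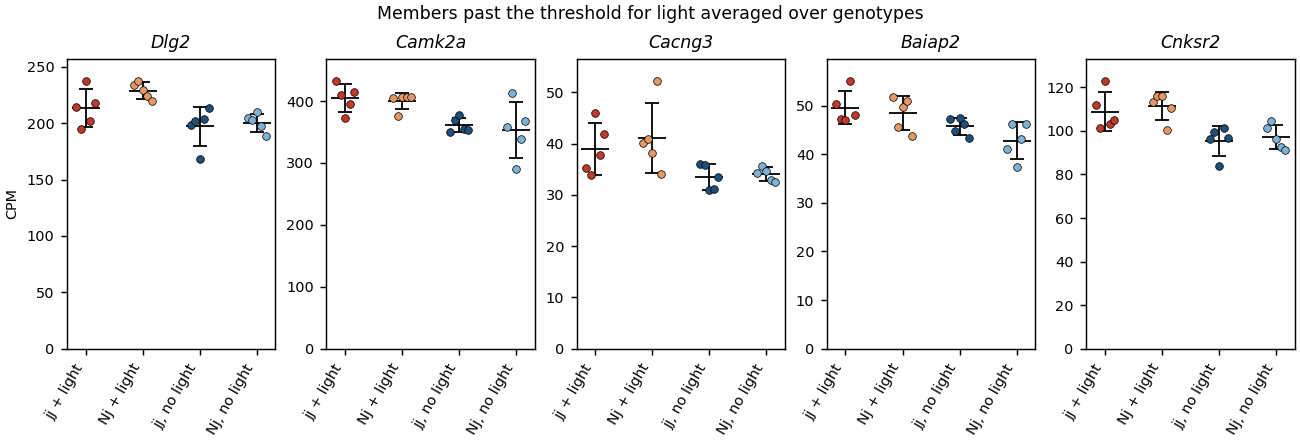
CPM in each library (points) for the 5 genes past the threshold in light averaged over genotypes, with the group mean and SD (bars), for light-treated jj, light-treated Nj, untreated jj and untreated Nj pups. Vertical axes start at 0. In each panel both light-treated group means lie above both untreated group means, in the same libraries by which the genes were chosen.

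Among the actin and small GTPase regulators, Cnksr2 and Baiap2 rose and the other 5 genes were not called. Cnksr2 (ENSRNOG00000007014) encodes a scaffold that joins Ras signalling to MAGUKs. It had 112, 101, 123, 103 and 105 CPM in light-treated jj pups and 113, 116, 116, 101 and 110 CPM in light-treated Nj pups. The untreated values were 96.4, 99.3, 83.8, 101 and 96.6 CPM in jj pups and 101, 104, 96.3, 92.8 and 91.0 CPM in Nj pups. All 10 light-treated libraries lay above the untreated median, 7 lay above the highest untreated library, and untreated jj 3 was the lowest of all. Means of 110 ± 7.45 CPM with light and 96.3 ± 6.00 CPM without (SD, n = 10 each) gave a log2 fold change of 0.19 (SE 0.042), with the lowest adjusted p of the list, 0.00581 by edgeR's quasi-likelihood test. In the annotation of GRCr8 its span overlaps Klhl34, and the strand setting of the authors' counting is not given in the sources used here.

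Baiap2 (ENSRNOG00000004049) encodes IRSp53, which bends membranes and links them to actin. Light-treated jj pups had 50.4, 47.2, 47.1, 55.1 and 48.0 CPM, and light-treated Nj pups had 51.9, 45.6, 49.8, 51.0 and 43.8 CPM. Without light, jj pups had 47.2, 44.8, 47.4, 46.3 and 43.2 CPM and Nj pups had 41.0, 46.3, 37.4, 43.2 and 46.2 CPM. The ranges overlapped, with 6 of 10 light-treated libraries above the highest untreated one and untreated Nj 3 lowest. Averages were 49.0 ± 3.31 CPM with light and 44.3 ± 3.16 CPM without (SD, n = 10 each), a log2 fold change of 0.15 (SE 0.044, adjusted p from edgeR's quasi-likelihood test 0.0357). The call was lost without untreated jj 4 (adjusted p from edgeR = 0.0516), without light-treated Nj 1 (0.0507) and when the 7 libraries with over 1000 CPM of Ttr were left out (0.0594). Of the rest of the role, log2 differences were 0.04 for Sorbs2, an actin adaptor, and 0.02 for Kalrn, a Rac exchange factor that enlarges spines. They were 0.04 and 0.05 for Iqsec1 and Iqsec2, Arf6 exchange factors tied to AMPA receptor removal, and 0.01 for Agap2, an Arf GTPase-activating protein. Kalrn, with a within-group SD of 0.05 on the log2 scale, was among the steadiest of the 38 genes. All 7 estimates of the role were positive.

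In the other 5 roles no member was called, and in each the gene with the lowest p is given library by library. The Dlgap proteins and Begain, which bind the guanylate kinase domain of MAGUKs, had positive estimates in 5 of 5, with a median of 0.03 on the log2 scale. Dlgap2 had 36.5, 33.1, 31.4, 34.1 and 35.9 CPM in light-treated jj pups and 33.2, 34.4, 29.8, 33.8 and 34.0 CPM in light-treated Nj pups. It had 32.8, 31.7, 33.3, 34.3 and 29.4 CPM in untreated jj pups and 32.2, 31.8, 28.0, 32.8 and 30.6 CPM in untreated Nj pups. The groups overlapped widely, and the log2 difference of 0.09 was not called (adjusted p from edgeR = 0.197). The other linkers had log2 differences of 0.05 for Dlgap1, 0.03 for Dlgap3 and 0.02 for both Dlgap4 and Begain.

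Shank proteins form the deep layer of the density and Homer proteins cross-link them to metabotropic receptors. Of these 6 genes 4 had positive and 2 had negative estimates. Shank1 had 672, 646, 677, 706 and 653 CPM in light-treated jj pups and 680, 622, 661, 637 and 595 CPM in light-treated Nj pups. Untreated jj pups had 679, 698, 792, 692 and 701 CPM, and untreated Nj pups had 649, 688, 605, 753 and 727 CPM. Light-treated libraries lay mostly in the lower part of the untreated range, and untreated jj 3 stood highest. The log2 difference was -0.09 (SE 0.039, adjusted p from edgeR = 0.139), and that of Homer3 was -0.11 (SE 0.057, adjusted p from edgeR = 0.247). Shank2, Shank3, Homer1 and Homer2 had log2 differences of 0.11, 0.08, 0.08 and 0.02. Shank3, whose loss in humans causes an autism-linked syndrome, averaged 270 ± 12.1 CPM with light and 255 ± 19.3 CPM without.

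The calcineurin catalytic subunit Ppp3ca, a phosphatase that opposes CaMKII during synaptic depression, had 538, 490, 510, 480 and 497 CPM in light-treated jj pups and 524, 550, 562, 441 and 527 CPM in light-treated Nj pups. Its untreated values were 487, 469, 415, 472 and 508 CPM in jj pups and 518, 515, 483, 466 and 487 CPM in Nj pups. Light-treated Nj pups held both a high run of values and the lowest light-treated library. The log2 difference of 0.09 was not called (adjusted p from edgeR = 0.195), nor was that of -0.03 for Ppp1r9b, the gene of spinophilin, which brings protein phosphatase 1 to spines.

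Neuroligins and Lrrtm2 reach across the cleft to neurexins. Nlgn3, found at both excitatory and inhibitory synapses, had 286, 268, 278, 286 and 279 CPM in light-treated jj pups and 274, 277, 286, 274 and 271 CPM in light-treated Nj pups. Untreated jj pups had 262, 300, 311, 296 and 293 CPM and untreated Nj pups had 285, 300, 285, 298 and 290 CPM. Apart from untreated jj 1, untreated libraries lay near or above the upper end of the light-treated range, and the log2 difference of -0.07 was not called (SE 0.028, adjusted p from edgeR = 0.112). Nlgn2, the neuroligin of inhibitory synapses, also had a negative estimate, -0.07, and Nlgn1, that of excitatory synapses, a value of 0.03. Lrrtm2, with a log2 difference of 0.14, ran from 80.3 to 102 CPM with light and from 50.5 to 91.9 CPM without, its lowest value being in untreated jj 3. Nlgn1 was also lowest there, at 90.0 CPM against 124 to 148 CPM in the other untreated jj libraries.

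Of the metabotropic glutamate receptors, Grm5 couples to phospholipase C and sits at the rim of the density, and Grm3 lowers cyclic AMP and is also made by astrocytes. Grm3 had 106, 108, 131, 106 and 102 CPM in light-treated jj pups and 110, 115, 115, 97.3 and 96.0 CPM in light-treated Nj pups. Untreated jj pups had 101, 106, 89.9, 117 and 107 CPM, and untreated Nj pups had 96.6, 96.3, 106, 106 and 96.1 CPM. These ranges overlapped nearly throughout apart from light-treated jj 3, and neither Grm3 (0.09) nor Grm5 (0.00) was called on the log2 scale.

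**Figure D4:**
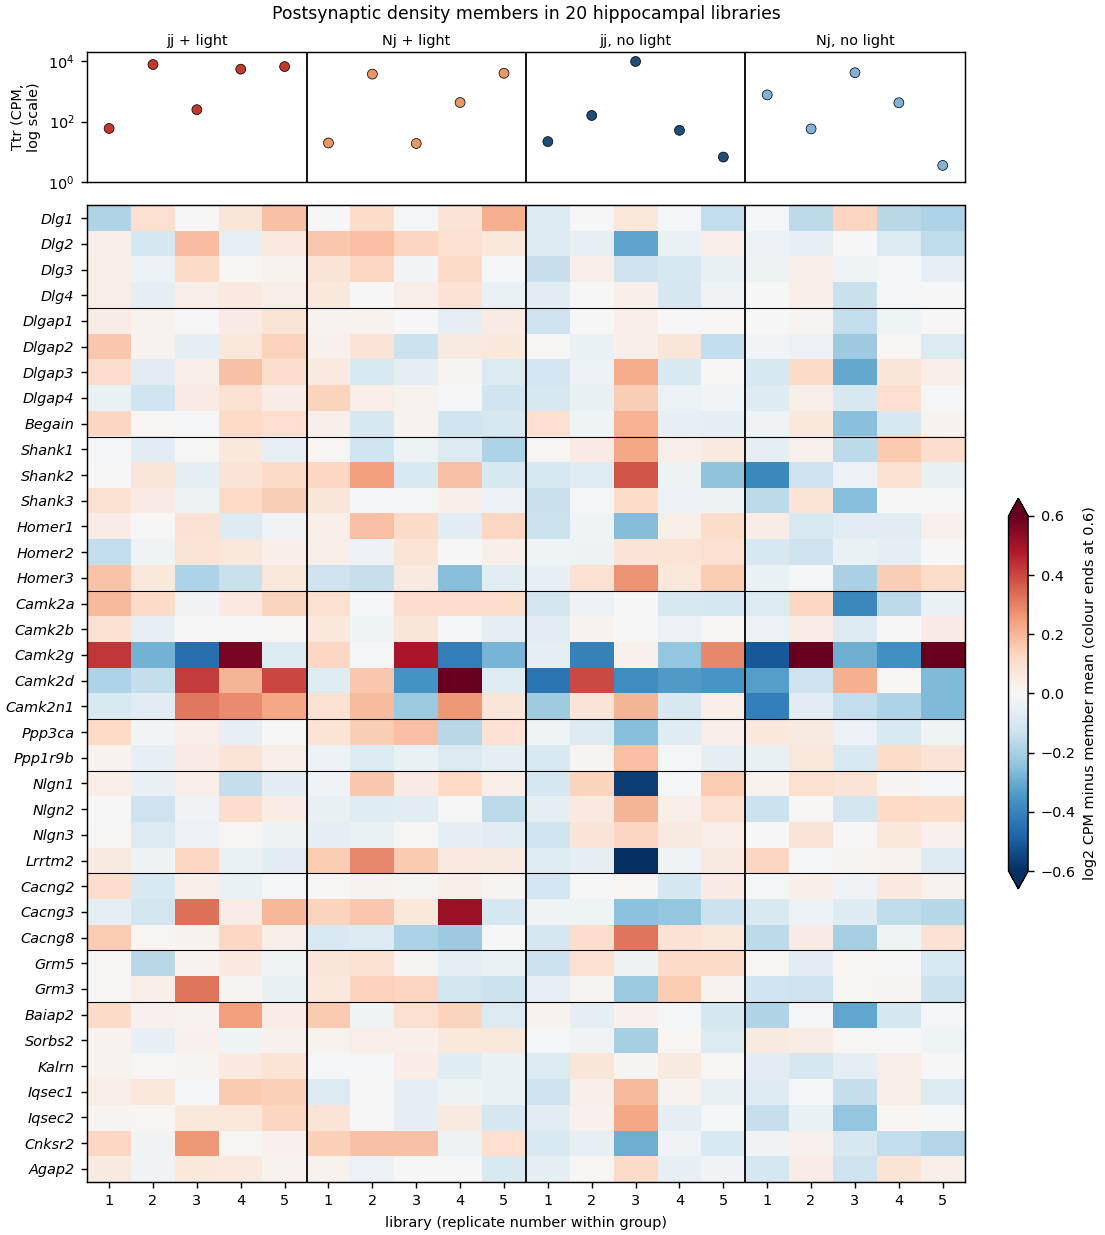
Log2 CPM of each of the 38 genes minus its mean over the 20 libraries, by group and replicate number, with colour ending at 0.6 either way and lines between roles. The upper panel gives Ttr CPM in the same libraries on a log axis. Untreated jj 3 stands out as a column of deep colours, and Camk2g and Camk2d as rows.

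Within each genotype on its own, light changed no postsynaptic density gene past the threshold. The estimates of the 5 called genes had the same sign in both genotypes. The averaged test that chose these genes used the same libraries, so their shared sign is no separate support. In Nj pups edgeR called 0 of 38, against 4.0% of all genes tested. At an unadjusted p under 0.05 there were 7 members, all higher, against 18.1% of all genes. DESeq2 called Dlg2, Camk2n1 and Cnksr2 in Nj pups, against 7.34% of the genes it tested. Dlg2 was closest in the edgeR test, with a log2 difference of 0.19 (SE 0.056, adjusted p from edgeR = 0.0565). It was also the single member whose light-treated and untreated Nj libraries did not overlap, against 6.46% of all genes. In jj pups edgeR called 0 of 38, against 0.164% of all genes, and 4 members, all higher, had an unadjusted p under 0.05, against 13.0%. DESeq2 called 0 members in jj pups, against 2.26% of its genes. No member had jj groups apart with and without light, against 2.96% of all genes. Cnksr2 had the lowest adjusted p in jj pups, 0.164 by edgeR.

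The light effects in Nj and in jj pups share no library, but both light-treated groups carry prefix J18 and neither untreated group does. A difference that goes with prefix J18 would enter both effects. The untreated sides differ in prefix, J17 in jj pups and J13, J14 or J15 in Nj pups, so a prefix difference need not enter both alike. The members were also measured in the same libraries, so the counts of signs are a description. Both were positive for 27 members (71.1%), both negative for 5 (13.2%) and opposite for 6 (15.8%). Over all genes tested the shares were 35.0%, 34.9% and 30.1%. The log2 fold changes in jj pups and in Nj pups were 0.11 and 0.19 for Dlg2, 0.17 and 0.18 for Camk2a, and 0.22 and 0.27 for Cacng3. Without untreated jj 3 the value of Dlg2 in jj pups was 0.07, and without light-treated Nj 4 that of Cacng3 in Nj pups was 0.17. The log2 fold changes were 0.11 and 0.18 for Baiap2, and 0.19 and 0.20 for Cnksr2. The difference between genotypes was tested as an interaction, which also holds any difference between the prefixes of the 2 untreated groups. EdgeR and DESeq2 called no gene in that test, members or others (0.0% each). No member had an unadjusted p under 0.05, against 3.41% of all genes. For Dlg2 the interaction was -0.08 on the log2 scale with an SE of 0.079, and for Cacng3 it was -0.05 with an SE of 0.13. A p over the threshold does not show that light acted alike in both genotypes.

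**Figure D5:**
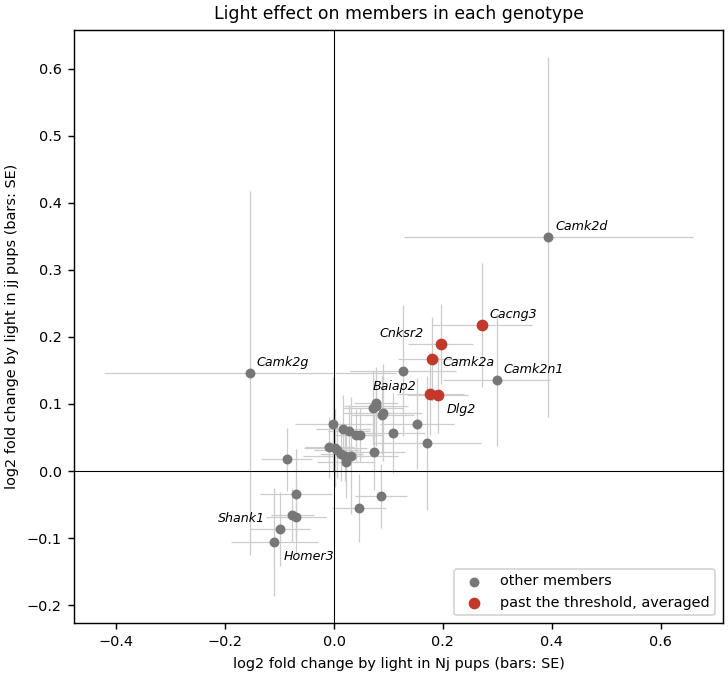
Log2 fold change by light in jj pups (vertical) against that in Nj pups (horizontal) for the 38 genes, with bars of 1 SE. The 5 genes past the threshold in the averaged test (red) lie at the upper right, and Camk2d and Camk2g carry the widest bars.

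Jaundice changed no postsynaptic density gene past the threshold, with or without light. Between untreated jj and untreated Nj pups edgeR called 0 of 38 members and 0.0% of all genes, and DESeq2 called 0 members and 0.00439% of its genes. At an unadjusted p under 0.05 there were 3 members, Cacng8, Camk2n1 and Homer2, all higher in jj, against 6.36% of all genes. Between light-treated jj and light-treated Nj pups, the comparison within 1 title prefix, edgeR again called 0 members and 0.0% of all genes, and DESeq2 0 members and 0.00878%. Here Cacng8, Iqsec1 and Begain had an unadjusted p under 0.05, all higher in jj, against 6.62% of all genes. Averaged over light, genotype gave 6 members at an unadjusted p under 0.05, of which 4 were higher in jj, against 11.2% of all genes. Neither edgeR nor DESeq2 called any gene in the averaged comparison (0.0% each).

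Cacng8 had the lowest p in both comparisons of genotype. It had 104, 94.1, 94.9, 102 and 95.6 CPM in light-treated jj pups, against 87.8, 88.2, 82.0, 80.4 and 93.2 CPM in light-treated Nj pups. Untreated jj pups had 87.3, 101, 117, 99.4 and 98.1 CPM, against 83.7, 96.9, 81.5, 91.9 and 99.1 CPM in untreated Nj pups. The light-treated genotypes did not overlap, as in 1.2% of all genes, whereas the untreated genotypes did. No member had untreated genotypes apart, against 1.0% of all genes. Averaged over light, Cacng8 had a log2 difference of 0.17 (SE 0.047) and an adjusted p from edgeR of 0.408, so it was not called. Of the 5 genes that rose with light, log2 differences between genotypes averaged over light ran from -0.06 for Dlg2 to 0.07 for Baiap2.

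Genes of the same pathway outside the list were read from 6 lists of other excitatory postsynaptic genes and 1 of inhibitory ones, in light averaged over genotypes. In the 6 excitatory lists 18 genes rose and 11 fell of 124 tested, and the median log2 difference was 0.01. Of all genes tested, 4.35% were called higher and 5.74% lower, and the counts of single lists below are to be read against these shares. Calcium and phosphatase signalling had 7 genes that rose and none that fell of 22, with a median of 0.09. Among these were Nrgn, a store of calmodulin in dendrites, at 806 ± 56.3 CPM with light and 711 ± 57.5 CPM without, and Ppp3r1, the regulatory partner of Ppp3ca, at 379 ± 21.2 and 322 ± 38.6 CPM. AMPA receptor trafficking genes rose in 3 and fell in 2 of 16. Akap5, which anchors kinase A and calcineurin beside MAGUKs, rose by 0.30 on the log2 scale, and Nsf, an ATPase that binds AMPA receptors, by 0.12, while Shisa7, a receptor auxiliary protein, fell by 0.14.

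Against the same 4.35% and 5.74% of all genes, metabotropic receptor signalling had 2 genes that rose and none that fell of 9, Prkcb by 0.12 and Rgs4, a brake on G-protein signalling, by 0.38 on the log2 scale. Spine actin regulators rose in 3 and fell in 4 of 30. Among them Dbn1, the gene of drebrin, an actin-binding protein of developing spines, had 496 ± 32.9 CPM with light and 580 ± 42.8 CPM without. The log2 fold changes were -0.23 for Dbn1, 0.15 for Psd3, an Arf6 exchange factor, and -0.11 for Srgap2, which shapes spine necks. Adhesion genes rose in 1 and fell in 3 of 27, with Lrrtm4 at 0.21, Ptprf at -0.18 and Ephb2 at -0.17 on the log2 scale. Other MAGUK partners rose in 2 and fell in 2 of 20, with Lin7b at 0.24 and Sipa1l2 at -0.15. Gda, a guanine deaminase that binds PSD-95, was called for light in Nj pups (adjusted p from edgeR = 0.0326) and in none of the other 6 comparisons, the interaction included. At the inhibitory postsynapse 2 genes rose and 1 fell of 13. There Dgkb, a diacylglycerol kinase, rose by 0.27 on the log2 scale, while Mdga1, which blocks neuroligin binding, fell by 0.21.

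Markers of cell types moved with light as well, where 4.35% of all genes tested were called higher and 5.74% lower. Of 11 neuron markers 5 rose and none fell, and their summed level ran from 8910 to 9980 CPM (median 9690) with light and from 7600 to 9600 CPM (median 9110) without. Of 9 immature neuron markers 6 fell and none rose, with sums of 5680 to 6830 CPM (median 6290) with light and 6380 to 8030 CPM (median 7200) without. Markers of dividing cells fell in 5 of 10. Astrocyte markers rose in 3 and fell in 1 of 10, with sums of 2860 to 3120 CPM with light and 2490 to 3080 CPM without, and microglia markers rose in 3 of 11. Choroid plexus markers were called in 0 of 13, with sums of 69.0 to 8810 CPM (median 2420) with light and 54.1 to 10900 CPM (median 176) without. Meninges markers were called in 0 of 11, with sums of 570 to 2230 CPM with light and 582 to 2780 CPM without. The part of these markers in the results for postsynaptic density genes was not tested. In whole hippocampus, fewer cells of a type and less RNA per cell cannot be told apart. Without the 7 libraries above 1000 CPM of Ttr, most of them light-treated, Dlg2 and Cnksr2 were still called. Their log2 fold changes were 0.18 and 0.21, with an adjusted p of 0.0194 each by edgeR. Camk2a, Cacng3 and Baiap2 had log2 fold changes of 0.16, 0.30 and 0.15 there and adjusted p of 0.0615, 0.0572 and 0.0594 by edgeR, over the threshold. Without untreated jj 3 all 5 genes passed, with adjusted p by edgeR between 0.00347 and 0.0302.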

How the data were processed

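PolyA RNA of the hippocampus of 20 Gunn rat pups was sequenced, 5 per group. The authors deposited raw read counts per gene, without normalization, for 32883 rat Ensembl genes. Per the submitters' processing notes, FastQC, TopHat2 2.0.13, Subread and edgeR were used. The notes name a mouse genome build although the identifiers are of rat genes, and the rat build and strand setting are not given in the sources used here. Reads were not realigned.

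Members were matched by the symbol that each row name carries after its Ensembl identifier. Genes were filtered with filterByExpr by group, which left 15272, scaled by TMM and fitted with edgeR 4.0.16 (limma 3.58.1, R 4.3.3) in 1 quasi-likelihood model of all 20 libraries with a mean per group, robust and with legacy estimates. F-tests of 7 contrasts were two-sided, and Benjamini-Hochberg adjusted p under 0.05 over all genes was the threshold. The precision of each value is limited by the spread between the 5 libraries of a group and by counting, at 16882652 to 27112749 counts per library. The lowest count of a member was 110.

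Alternatives were DESeq2 1.42.0, its size factors, no filter, a mean count of at least 10, newer edgeR estimates, the compared groups alone, untreated Nj pups of prefix J15 alone, leaving out libraries above 1000 CPM of Ttr, and leaving out each library. Members, roles, lists and tests were chosen with earlier results of these data known. Values in every library are given for members called in any comparison and for the member with the lowest p of each role without a call; up to 3 called genes of each pathway list are named, apart from 2 that are left out here though counted. Promoters are from RefSeq, build GRCr8. GEO's design text mentions 6 untreated pups a group at one point; 5 a group were analysed here. Lrrtm1 was not analysed here.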

Additional observations from a re-analysis of the deposited data

Results flagged for a closer look

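In 13 of 152 sets of 5 libraries (38 genes in 4 groups), 1 library stood apart from the other 4 by Dixon's criterion at 95%. At that level about 1 set in 20, or 7.6 sets, would be flagged if values within a group were normally distributed. The genes were measured in the same libraries, so the sets are not independent. The count of 13 against 7.6 therefore does not show an excess. Untreated jj 3, the library with the highest Ttr level, accounts for 4 of them: Shank1 at 792 CPM (others 679 to 701), Iqsec2 at 120 CPM (others 97.7 to 104), Lrrtm2 at 50.5 CPM (others 79.7 to 87.2) and Cnksr2 at 83.8 CPM (others 96.4 to 101). Untreated Nj 3 accounts for 2, with Dlg4 at 592 CPM (others 648 to 669) and Dlgap1 at 197 CPM (others 214 to 220). Light-treated jj 4 and 5 and light-treated Nj 5, also above 1000 CPM of Ttr, had no flagged set. Light-treated jj 2 and Nj 2, above it too, are among the libraries below. The part of choroid plexus content in these values was not tested.

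The remaining 7 sets fell in 7 different libraries. Camk2d, the gene of the delta subunit of CaMKII, reached 225 CPM in light-treated Nj 4 (others 73.5 to 105) and 124 CPM in untreated jj 2 (others 69.5 to 74.3). Camk2a was low in light-treated Nj 2, at 376 CPM against 405 to 407 in the others. Dlg4 was low in light-treated jj 2, at 624 CPM (others 665 to 677), and Grm3 was high in light-treated jj 3, at 131 CPM (others 102 to 108). Dlgap2 had 29.8 CPM in light-treated Nj 3 (others 33.2 to 34.4), and Dlgap1 had 200 CPM in untreated jj 1 (others 218 to 224).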

How the results depend on the processing

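In light averaged over genotypes, 5 members were called. The count fell to 2 without the 7 libraries above 1000 CPM of Ttr, a fit with fewer samples. That fit leaves out light-treated jj 2, 4 and 5, light-treated Nj 2 and 5, untreated jj 3 and untreated Nj 3. More libraries are thus lost from the light-treated groups. The count was 7 with DESeq2 and with its size factors, and 6 with the mean count filter. It was 5 with no filter, newer estimates or prefix J15 alone, and 4 to 7 when each library was left out. Cnksr2 and Dlg2 were called in all 27 alternatives, Camk2a and Cacng3 in 26 and Baiap2 in 24. Dlg3 passed in 10 alternatives and Camk2n1 in 7. Between 30 and 32 of 38 estimates were positive in each alternative; Begain, Camk2g, Nlgn1 and Grm5, all near 0, changed sign in at least 1. In light in Nj pups 0 members were called, against 3 with DESeq2, 2 with the compared groups alone, 2 with prefix J15 alone, 1 with the mean count filter, 1 without libraries above 1000 CPM of Ttr and 0 to 2 when each library was left out (2 without untreated Nj 2, 1 without light-treated Nj 3 or 4); the cause was not tested. In the other 5 comparisons 0 members were called in every alternative run. Over all genes, light averaged gave 1541 calls, 424 without libraries above 1000 CPM of Ttr and 1020 (without untreated Nj 4) to 1697 when each library was left out. Light in Nj pups gave 611, 1009 with DESeq2, 112 without those libraries and 152 to 651 when each library was left out, with 152 and 159 without untreated Nj 4 and 5 and 272 and 253 without light-treated Nj 2 and 5. Light in jj pups gave 25, 271 with DESeq2, 3 with the compared groups alone, 0 without those libraries and 0 to 43 when each library was left out, with 0 without light-treated jj 2, 3 or 5 or untreated jj 4, 5 without light-treated jj 4, 16 without untreated jj 1, and 39 and 43 without untreated jj 3 and light-treated jj 1. No paired analysis was possible because the labels pair no single pup of one group with a pup of another. The lowest count of any member in a library was 110, for Camk2g.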

Other observations

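Ratios between related postsynaptic genes, picked after their values were seen, are given without a test. Dlg2 over Dlg4 CPM was 0.334 ± 0.021 with light and 0.312 ± 0.0277 without, and Dlg4 over Dlg3 was 2.64 ± 0.0981 and 2.71 ± 0.13 (SD, n = 10 each). Cacng3 over Cacng2 was 0.625 ± 0.085 with light and 0.534 ± 0.0394 without. The ranges of all 3 ratios overlapped between light-treated and untreated pups.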
